A study of Mus musculus with 7 samples.

Results

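Annexins and S100 proteins are calcium-binding proteins, and the genes described here are 6 annexin genes (Anxa1, Anxa2, Anxa3, Anxa4, Anxa5 and Anxa8) and 4 S100 genes (S100a4, S100a6, S100a10 and S100a11). A gene was followed through every probe set of the array whose annotation names that gene and no other. By this rule 17 probe sets represent 9 of the 10 genes, among 18193 genes measured the same way. S100a11 is not analysed here, because its probe set names further genes beside it. Anxa1 and S100a4 were chosen by their high values in mIMCD-3, so the differences of mIMCD-3 from the tissues are given as a description, with no test. The samples were confluent cells of a freshly isolated subclone of mIMCD-3, an established line of inner medullary collecting duct origin in the mouse, kept in DMEM (1 array), and 3 tissues dissected from mouse kidneys at E12.5, the embryonic day: ureteric bud tip, ureteric bud stalk and metanephric mesenchyme (2 biological replicate arrays each). The labels give no strain, genotype or treatment for the tissues, and do not say how many embryos went into a replicate. The tissue arrays had been published before the mIMCD-3 array was added, so cell line and time of measurement cannot be told apart in mIMCD-3.

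Annexins share a core of repeats that binds acidic phospholipids when calcium is present, and they act at membranes in vesicle traffic, in linking membrane to actin and in sealing torn membrane. S100 proteins are small dimers with EF-hand calcium sites that dock on partner proteins, several of which are annexins. S100A10 joins annexin A2 in a complex at the plasma membrane, and S100A11 binds annexin A1. In the kidney the ureteric bud grows into the mesenchyme and branches at its tips, while its stalk becomes the duct system from which the collecting duct derives.

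All values are log2 of the robust multichip (RMA) intensity unless stated otherwise, and a difference of 1 is a doubling of intensity. The median of an array lay between 5.39 and 5.62 and its lower quartile between 3.99 and 4.22, which marks the range in which a probe set is dim. Levels of different probe sets are not comparable with each other, since probes differ in affinity. With 2 arrays a tissue and 1 of mIMCD-3, the number of arrays limits the precision. Ureteric epithelium markers separated both bud tissues from mesenchyme. Of these, 8 of 9 were called higher in tip and 8 of 9 in stalk than in mesenchyme, against 7.38% and 4.3% of all genes. Cdh1, the E-cadherin gene, lay at 10.88 in mIMCD-3, 11.09 and 10.97 in tip, 10.45 and 10.49 in stalk, and 4.0 and 3.68 in mesenchyme. Of these 9 markers mIMCD-3 had Cdh1, Epcam, Krt8 and Krt18 between 10.79 and 12.31, and Gata3, Hoxb7, Ret, Wnt9b and Calb1 between 3.38 and 5.22, below its median. Hoxb7 was as low in the bud, between 3.88 and 4.24. Of 6 collecting duct markers, Scnn1a was at 6.22 in mIMCD-3, above its median, and Aqp2, Aqp3, Scnn1b, Scnn1g and Hsd11b2 were between 5.0 and 5.15, below it. Scnn1a (6.26 to 6.55), Aqp2 (4.88 to 5.49) and Aqp3 (5.27 to 5.94) were at similar levels in the tissues. Scnn1b, Scnn1g and Hsd11b2 were higher in all bud arrays than in mIMCD-3. Of 6 nephron progenitor markers, 5 were called lower in stalk than in mesenchyme, against 1.24% of all genes. Of 6 renal stroma markers, 1 was called lower there and 0 higher, with a median difference of -0.02, so the stalk arrays carried stromal signal.

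The promoters of 4 genes are shown because the results turn on them: S100a6 and Anxa1 had the largest differences of mIMCD-3 from the bud, S100a4 was flat across the tissues, and Anxa2 was low in the tip. Each line holds the 250 bases before the transcription start in RefSeq, build GRCm38.p6, 5′ to 3′ on the gene's strand. Capitals mark matches, on either strand, to TATAAA (the TATA box), GGGCGG (the GC box), CCAAT (the CCAAT box) and TGANTCA (the AP-1 site).
S100a6, chr3:90612644-90612893, plus strand: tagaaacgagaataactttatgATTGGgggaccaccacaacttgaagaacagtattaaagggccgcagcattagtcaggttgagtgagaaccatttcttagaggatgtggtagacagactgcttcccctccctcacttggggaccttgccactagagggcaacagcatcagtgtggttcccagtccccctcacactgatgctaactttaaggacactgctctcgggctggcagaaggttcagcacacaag
Anxa1, chr19:20390672-20390921, minus strand: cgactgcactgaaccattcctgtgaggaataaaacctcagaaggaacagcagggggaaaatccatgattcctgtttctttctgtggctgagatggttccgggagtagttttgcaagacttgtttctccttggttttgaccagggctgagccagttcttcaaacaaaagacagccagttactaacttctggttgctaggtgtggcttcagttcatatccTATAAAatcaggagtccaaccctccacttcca
S100a4, chr3:90603520-90603769, plus strand: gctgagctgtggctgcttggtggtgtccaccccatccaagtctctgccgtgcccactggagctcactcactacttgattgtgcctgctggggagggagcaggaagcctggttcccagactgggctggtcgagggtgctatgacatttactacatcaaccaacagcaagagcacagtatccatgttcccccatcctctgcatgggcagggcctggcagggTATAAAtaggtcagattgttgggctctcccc
Anxa2, chr9:69453433-69453682, plus strand: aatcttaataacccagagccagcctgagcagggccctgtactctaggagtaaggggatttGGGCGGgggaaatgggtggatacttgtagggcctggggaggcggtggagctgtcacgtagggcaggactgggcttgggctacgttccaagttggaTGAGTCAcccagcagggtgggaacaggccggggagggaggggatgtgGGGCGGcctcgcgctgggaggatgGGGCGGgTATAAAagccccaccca
Anxa1 and S100a4 held 1 TATAAA each, with its first base 32 and 31 bases before the start. S100a6 held a CCAAT match on the opposite strand, 228 bases before the start, and none of the other 3 motifs. Anxa2 held 3 GGGCGG, 1 TGANTCA at 95 bases and 1 TATAAA at 17 bases before the start. Among 32851 RefSeq promoter windows of the same length, 12.4% held TATAAA, 32.7% GGGCGG, 33.8% CCAAT and 6.75% TGANTCA. A match is a string of letters, and no binding was measured here. By the RefSeq annotation, S100a4 and S100a6 lie on chromosome 3 on either side of S100a5, and S100a11 and S100a10 are direct neighbours further along the same chromosome.

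**Figure D1:**
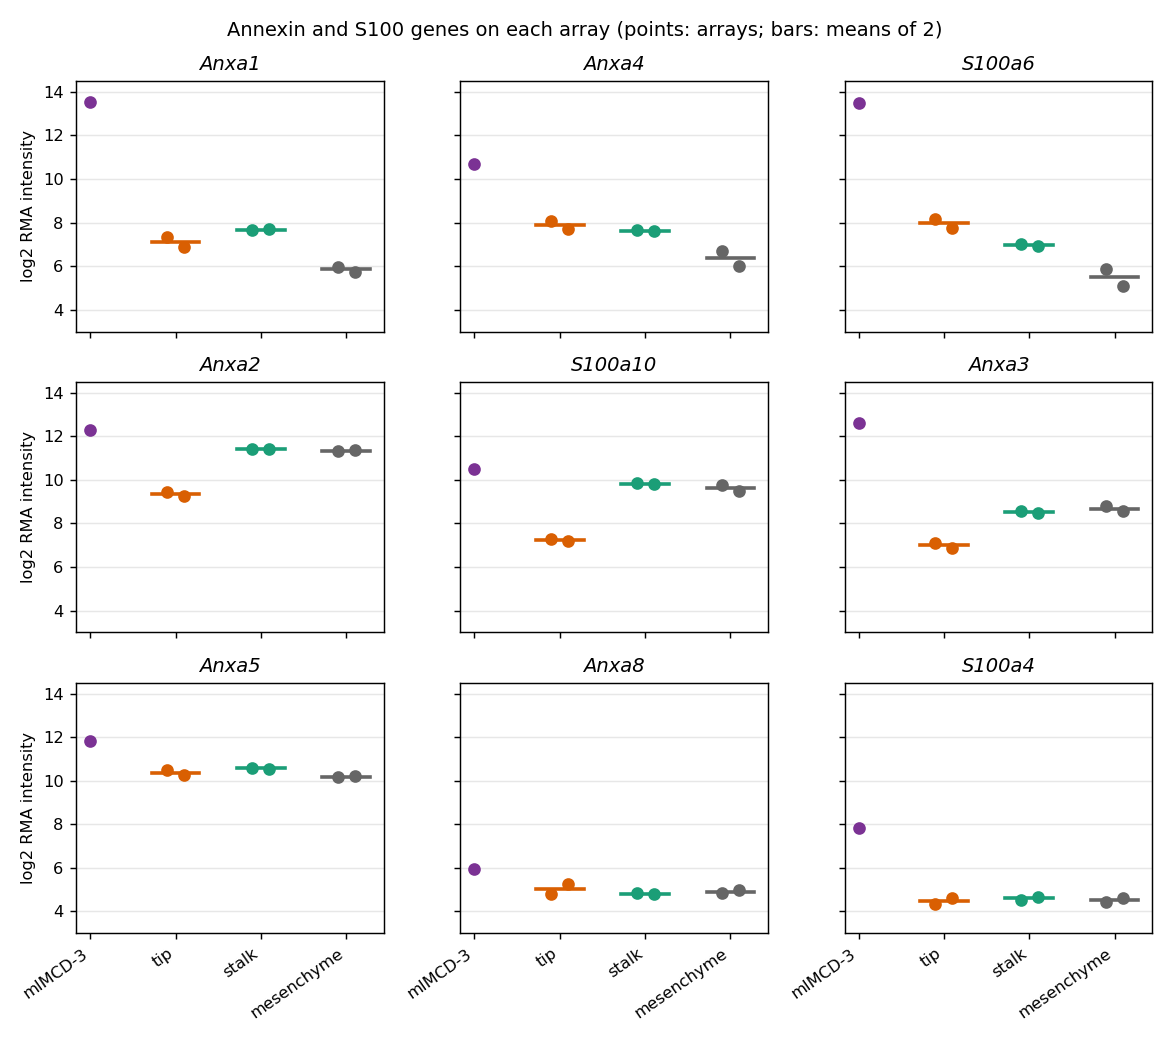
Log2 RMA intensity (y axis) of the 9 measured genes in mIMCD-3, tip, stalk and mesenchyme (x axis); points are arrays and bars are means of 2 arrays. mIMCD-3 is the highest array for every gene, and Anxa2, S100a10 and Anxa3 are lower in both tip arrays than in the other tissues.

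Anxa2 and S100a10, whose products form the annexin A2 complex, had lower RNA signals in the ureteric bud tip than in the other tissues at their brightest probe sets. Anxa2 (probe set 1419091_a_at), the membrane-binding subunit, was at 12.27 in mIMCD-3, 9.45 and 9.27 in tip, 11.40 and 11.40 in stalk, and 11.32 and 11.37 in mesenchyme. Both tip arrays lay below every other array, while stalk and mesenchyme were within 0.08 of each other. The difference of tip from stalk was -2.04 ± 0.13 log2 units (SE), a 4.12-fold lower intensity (adjusted p = 7.93e-05), in limma's fit of the 6 tissue arrays over all genes. Against mesenchyme it was lower in tip by a difference of -1.99 ± 0.13 (adjusted p = 3.19e-05). Between stalk and mesenchyme the Anxa2 difference was 0.05, with a 95% interval from -0.24 to 0.35 (adjusted p = 0.931).

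S100a10 (1416762_at), the S100 subunit of that complex, whose own EF-hand sites no longer bind calcium, followed the same order. It was at 10.52 in mIMCD-3, 7.29 and 7.21 in tip, 9.84 and 9.82 in stalk, and 9.75 and 9.49 in mesenchyme. The tip arrays again lay below all others and did not overlap with either tissue. The difference of tip from stalk was -2.58 ± 0.14, a 5.98-fold lower intensity (adjusted p = 4.14e-05), and that of tip from mesenchyme -2.37 ± 0.14 (adjusted p = 2.04e-05). Stalk and mesenchyme differed by 0.21, with a 95% interval from -0.11 to 0.53 (adjusted p = 0.655).

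The further probe sets of these genes did not all show the change. For S100a10, 1456642_x_at was lower in tip than in stalk by a difference of -2.75 ± 0.15 (adjusted p = 4.07e-05, each probe set a feature of its own), while the dim 1439348_at had -0.14 ± 0.17 (adjusted p = 0.698). For Anxa2, 1437692_x_at had -0.34 ± 0.13 (adjusted p = 0.21), and 1437691_at, which stayed between 2.91 and 3.16 on all arrays, had 0.02 ± 0.13 (adjusted p = 0.962). Averaged over its 3 probe sets, the Anxa2 difference of tip from stalk was -0.79 (adjusted p = 0.00417) and that of tip from mesenchyme -0.80 (adjusted p = 0.00212). The Euclidean distance between Anxa2 and S100a10, with profiles centred on their own means, was 0.60 over all 7 arrays, the smallest of the 36 pairs of measured genes. Over the 6 tissue arrays it was 0.60 as well, and there Anxa8 and S100a4 (0.40), Anxa5 and S100a4 (0.51) and Anxa2 and Anxa3 (0.56) were closer.

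Anxa3 (1460330_at), a member of the same family, was also low in tip. It was at 12.60 in mIMCD-3, 7.12 and 6.89 in tip, 8.57 and 8.48 in stalk, and 8.78 and 8.57 in mesenchyme, so the tip arrays were the lowest of the 7. Anxa3 was lower in tip than in stalk by a difference of -1.52 ± 0.14 (adjusted p = 0.000532) and lower than in mesenchyme by -1.67 ± 0.14 (adjusted p = 0.000145). Its difference of stalk from mesenchyme was -0.15, with a 95% interval from -0.48 to 0.19 (adjusted p = 0.792).

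Of the 9 measured genes these 3 were the ones called lower in tip than in stalk, and 0 were called higher, against 6.97% and 2.86% of all genes. Against mesenchyme the same 3 genes were lower in tip and 3 others were higher, against 8.37% and 7.38% of all genes. Markers of stromal and vascular cells moved in the same direction, and so did markers of other cells. Called lower in tip than in stalk were 5 of 6 nephron progenitor, 4 of 4 measured erythroid and 3 of 7 myeloid markers. For smooth muscle it was 1 of 4, and for neurons and neural crest 0 of 3 measured. In these lists 0 were called higher. All 6 renal stroma markers were lower in tip than in stalk, with a median difference of -3.51. Their summed linear intensity was 1067 to 1410 in tip, 10723 to 11090 in stalk and 11409 to 12015 in mesenchyme. All 6 endothelium markers were lower in tip than in stalk, with sums of 514 to 562 in tip, 1482 to 1494 in stalk and 2161 to 2423 in mesenchyme. RMA gives no value of 0, so no marker is at 0. The part of these cells in the lower Anxa2, S100a10 and Anxa3 of the tip was not tested, and in bulk tissue fewer cells of a type and less RNA per cell cannot be told apart. In mIMCD-3 the stromal sum was 892 and the endothelial sum 155. Among the stromal markers Foxd1 was at 9.57 in mIMCD-3, against 6.63 and 6.14 in tip, and the other 5 were between 2.80 and 5.73 in mIMCD-3, each below both tip arrays.

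**Figure D2:**
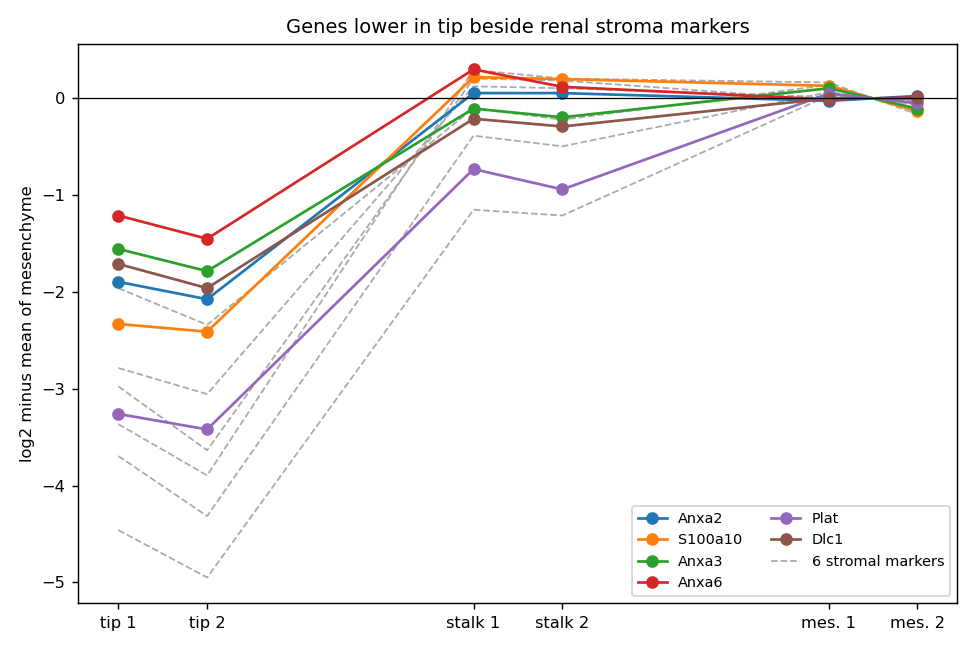
Log2 intensity minus the mean of the 2 mesenchyme arrays (y axis) on the 6 tissue arrays (x axis) for Anxa2, S100a10, Anxa3 and for Anxa6, Plat and Dlc1, which were chosen after their values were seen; dashed grey lines are the 6 renal stroma markers. All of these lines are lowest on the 2 tip arrays.

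The other 3 genes with a tissue difference, S100a6, Anxa1 and Anxa4, were higher in the bud than in the mesenchyme. S100a6 (1421375_a_at) encodes calcyclin, a small calcium sensor with many partners. It was at 13.50 in mIMCD-3, 8.18 and 7.77 in tip, 7.04 and 6.91 in stalk, and 5.88 and 5.09 in mesenchyme. The 3 tissues did not overlap, with tip above stalk and stalk above mesenchyme. S100a6 was 2.49 ± 0.26 higher in tip than in mesenchyme, a 5.6-fold difference (adjusted p = 0.000411), and 1.49 ± 0.26 higher in stalk than in mesenchyme (adjusted p = 0.0152). The difference of tip from stalk was 0.99 ± 0.26 and missed the threshold (adjusted p = 0.0556). It was below the threshold with the replicate block (adjusted p = 0.00234), after median centring of the arrays (adjusted p = 0.0101), without the dimmest genes (adjusted p = 0.0399), under a robust variance with a trend (adjusted p = 0.00613) and in the fit of tip and stalk alone (adjusted p = 0.0112). It was not called in any of the 4 fits that left out a tip or stalk array (adjusted p from 0.077 to 0.19).

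Anxa1 (1448213_at), a membrane repair protein and a ligand of formyl peptide receptors, had its highest tissue level in the stalk. It was at 13.55 in mIMCD-3, 7.35 and 6.89 in tip, 7.64 and 7.73 in stalk, and 5.97 and 5.75 in mesenchyme. The 3 tissues did not overlap, although the gap between tip and stalk was smaller than the distance of the tip arrays from each other. Anxa1 was 1.25 ± 0.18 higher in tip than in mesenchyme (adjusted p = 0.00211) and 1.82 ± 0.18 higher in stalk than in mesenchyme (adjusted p = 0.000857). The difference of tip from stalk was -0.57, with a 95% interval from -0.98 to -0.15, and missed the threshold (adjusted p = 0.1). The replicate block brought it below (adjusted p = 0.0219), as did a fit without tip replicate 1 (-0.80; adjusted p = 0.0217). The second probe set of Anxa1, 1444016_at, stayed between 3.18 and 3.79 in the tissues, and averaging both gave 0.59 for tip (adjusted p = 0.0327) and 0.79 for stalk (adjusted p = 0.0238) against mesenchyme.

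Anxa4 (1421223_a_at), an annexin found in many secretory and absorptive epithelia, was at 10.70 in mIMCD-3, 8.06 and 7.71 in tip, 7.66 and 7.60 in stalk, and 6.71 and 6.03 in mesenchyme. Bud and mesenchyme arrays did not overlap, while tip and stalk lay close together. Anxa4 was 1.51 ± 0.23 higher in tip (adjusted p = 0.00303) and 1.26 ± 0.23 higher in stalk (adjusted p = 0.0192) than in mesenchyme. Tip and stalk differed by 0.25, with a 95% interval from -0.28 to 0.79 (adjusted p = 0.568). Its probe set 1424176_a_at had a difference of 0.98 ± 0.22 for tip (adjusted p = 0.0232) and 0.91 ± 0.22 for stalk (adjusted p = 0.077) against mesenchyme, and 1457658_x_at had 0.79 ± 0.29 (adjusted p = 0.144) and 0.82 ± 0.29 (adjusted p = 0.274).

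S100a6, Anxa1 and Anxa4 were the 3 of 9 genes called higher in stalk than in mesenchyme, and 0 were called lower, against 4.3% and 1.24% of all genes. Without stalk replicate 1 only Anxa1 was called, with Anxa4 at an adjusted p of 0.0763 and S100a6 at 0.0549. Without stalk replicate 2 or without mesenchyme replicate 2, Anxa4 was not called (adjusted p = 0.0559 and adjusted p = 0.0617), nor over the mean of its 3 probe sets (0.99; adjusted p = 0.073). The count for tip against mesenchyme was 6 of 9 in each fit that left out an array. Ureteric epithelium markers, like these 3 genes, had higher signals in the bud than in mesenchyme. Their summed linear intensities were 28973 to 31364 in tip, 16245 to 16427 in stalk and 446 to 496 in mesenchyme. S100a6 shared this order of tip above stalk, while Anxa1 was highest in stalk and Anxa4 was close in both. The part of the markers' cells in the result was not tested. Myeloid cells can hold Anxa1 and S100a6. Of 7 myeloid markers, 1 was higher and 5 lower in tip than in mesenchyme (7.38% and 8.37% of all genes). In stalk 0 were higher and 1 lower than in mesenchyme (4.3% and 1.24%). The 1 higher marker was Ptprc, at 6.28 and 5.57 in tip, 5.57 and 5.91 in stalk, and 5.03 and 4.38 in mesenchyme. The sums of the 7 markers were 310 to 368 in tip, 581 to 595 in stalk and 884 to 1016 in mesenchyme. The part of myeloid cells was not tested.

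**Figure D3:**
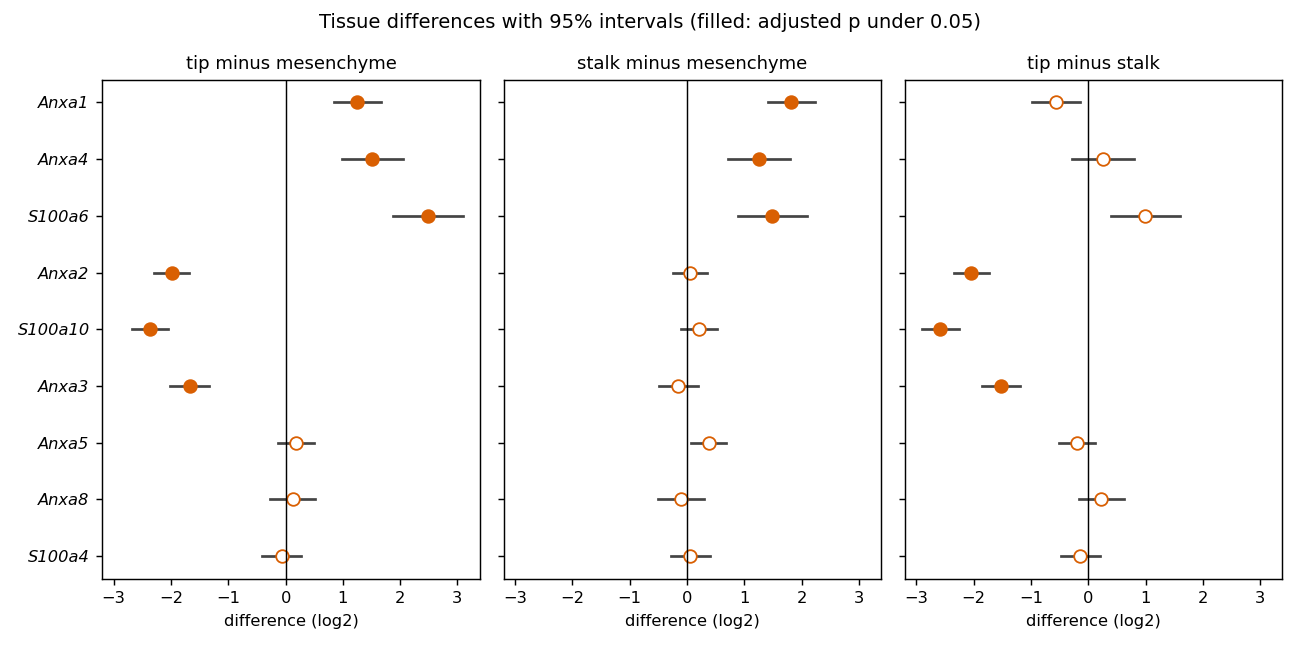
Log2 differences (x axis) of the 9 genes for tip minus mesenchyme, stalk minus mesenchyme and tip minus stalk; points are estimates of the limma fit, bars 95% intervals and filled points have an adjusted p under 0.05. Anxa2, S100a10 and Anxa3 fall left of 0 in both comparisons of the tip, and Anxa1, Anxa4 and S100a6 right of 0 in both comparisons with mesenchyme.

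Anxa5, Anxa8 and S100a4 were not called in any of the 3 tissue comparisons. Anxa5 (1425567_a_at), which binds phosphatidylserine on membranes, was at 11.81 in mIMCD-3, 10.49 and 10.25 in tip, 10.58 and 10.55 in stalk, and 10.18 and 10.20 in mesenchyme. All 6 tissue arrays lay within 0.40, and the difference of stalk from mesenchyme, 0.38 with a 95% interval from 0.07 to 0.69, was not called (adjusted p = 0.233), except with trend and robust variance (adjusted p = 0.0154). Anxa8 (1425789_s_at) lay at 5.96 in mIMCD-3 and between 4.80 and 5.27 in the tissues, and its probe set 1417732_at at 6.17 in mIMCD-3 and between 4.48 and 4.80 in the tissues. All its tissue values were below the medians of their arrays.

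S100a4 (1424542_at), known as fibroblast-specific protein and a binder of non-muscle myosin, was at 7.85 in mIMCD-3, 4.33 and 4.60 in tip, 4.54 and 4.66 in stalk, and 4.45 and 4.62 in mesenchyme. The tissues overlapped, and every tissue value was below the array medians. The differences were -0.07 for tip from mesenchyme (95% interval -0.42 to 0.27), 0.06 for stalk from mesenchyme (-0.28 to 0.41) and -0.14 for tip from stalk (-0.48 to 0.21). RMA makes no call of presence, and for dim probe sets it understates folds.

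In mIMCD-3 each of the 9 genes was above all 6 tissue arrays, as were 30.7% of all genes. These differences rest on 1 mIMCD-3 array, have no replicate check and partly chose the genes, so they are given by size. Anxa1 had a linear intensity of 12009.8 in mIMCD-3, against 118.4 to 211.8 in the 4 bud arrays. On the log2 scale it was 6.15 above the bud mean, a 71.0-fold ratio, and 7.69 above the mesenchyme mean. S100a6 had a linear intensity of 11567.5 in mIMCD-3, against 120.7 to 289.1 in the bud and 34.1 to 58.8 in the mesenchyme. It was 6.02 above the bud and 8.01 above the mesenchyme, where it ranked 1 of 18193 genes. Averaged over its 2 probe sets, Anxa1 was 3.85 above the bud and 4.55 above the mesenchyme.

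Anxa3 followed at 4.83 above the bud and 3.92 above the mesenchyme, with a linear intensity of 6200.5 in mIMCD-3, against 118.3 to 380.4 in the bud. S100a4 was 3.32 above the bud and 3.31 above the mesenchyme, with an intensity of 230.8 in mIMCD-3, against 20.1 to 25.2 over the 6 tissue arrays. Anxa4 was 2.94 above the bud and 4.33 above the mesenchyme. For these 5 genes the gap between mIMCD-3 and the highest tissue array was from 2.64 to 5.83. It was 1.23 for Anxa5 and 0.69 for Anxa8.

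Anxa2 and S100a10 had gaps of 0.87 and 0.68 to the highest tissue array. Anxa2 was 1.89 above the bud mean and 0.93 above the mesenchyme mean in mIMCD-3, and S100a10 was 1.98 and 0.90 above them. The bud mean here joins a low tip and a higher stalk, and leaving out each bud array in turn gave Anxa2 differences from 1.52 to 2.24. Anxa5 was 1.35 above the bud and 1.63 above the mesenchyme, and Anxa8 was 1.03 and 1.05 above them. At least 1 log2 unit above the bud were 9 of 9 genes, against 9.75% of all genes, and at least 1 above the mesenchyme were 7 of 9, against 11.2%. The count above the bud was 8 of 9 over the mean of the probe sets, without tip replicate 1 and without stalk replicate 2. The median difference from the bud was 2.94 for the 9 genes and -0.05 for all genes. These counts and this median include Anxa1 and S100a4, which were chosen by their high values in mIMCD-3. They describe the list and are no test of it. Averaged over its probe sets, Anxa2 was 0.96 above the bud and 0.55 above the mesenchyme.

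**Figure D4:**
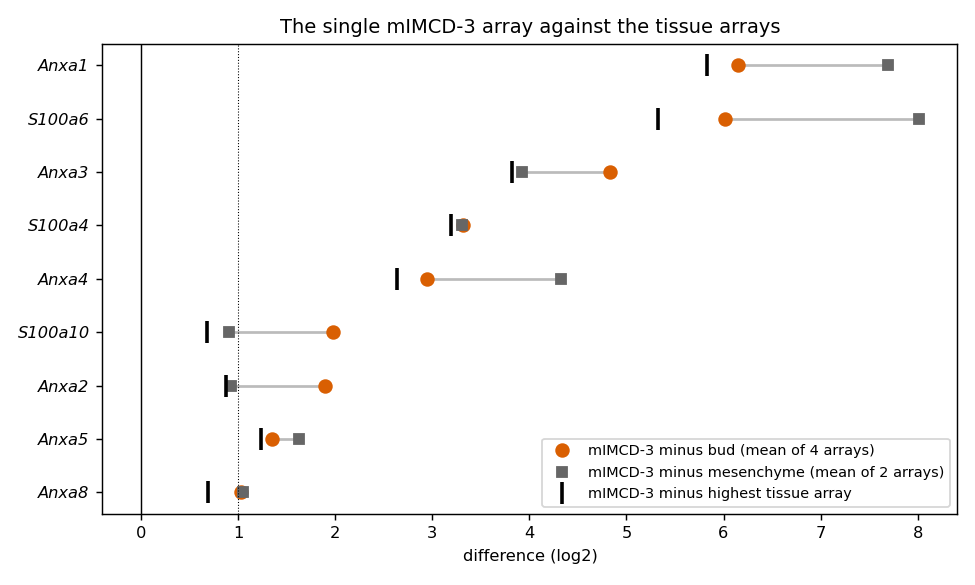
Log2 difference (x axis) of the single mIMCD-3 array from the mean of the 4 bud arrays (circles), from the mean of the 2 mesenchyme arrays (squares) and from the highest tissue array (ticks) for the 9 genes; the dotted line marks 1 log2 unit. Anxa1 and S100a6 are farthest to the right, and every tick is right of 0.

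Further members of both families were also compared. Of 6 further annexin genes, 5 were measured. In tip against mesenchyme 1 was higher and 1 lower (7.38% and 8.37% of all genes), in stalk against mesenchyme 1 was higher and 0 lower (4.3% and 1.24%), and in tip against stalk 0 were higher and 1 lower (2.86% and 6.97%). Anxa6, an annexin with a duplicated core, was lower in tip than in stalk (-1.54 ± 0.14; adjusted p = 0.000456) and than in mesenchyme (-1.33 ± 0.14; adjusted p = 0.00045). It was at 6.97 in mIMCD-3, against 7.68 and 7.44 in tip, so unlike the 9 genes it lay below all tissue arrays there. Anxa9 was higher than in mesenchyme in both tip (0.86 ± 0.14; adjusted p = 0.00516) and stalk (1.14 ± 0.14; adjusted p = 0.00319), and Anxa7, Anxa10 and Anxa13 were not called. The median difference of tip from stalk was -0.28 over the 5 annexins and 0.07 over all genes. In mIMCD-3 1 of the 5, Anxa7 by 1.38, was at least 1 above the bud, against 9.75% of all genes. Anxa6 was the 1 at least 1 below it, against 9.33%. The median difference of mIMCD-3 from the bud was -0.02 over the 5 annexins and -0.05 over all genes.

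Of 12 further S100 genes, 10 were measured, and S100a13 was the 1 called lower in tip, against mesenchyme (8.37% of all genes) and against stalk (6.97%), with 0 called in stalk against mesenchyme. It was lower in tip than in stalk (-0.96 ± 0.14; adjusted p = 0.00394) and than in mesenchyme (-1.19 ± 0.14; adjusted p = 0.000701). In mIMCD-3 4 of the 10 were at least 1 above the bud, against 9.75% of all genes: S100a1 by 2.81, S100a14 by 2.62, S100a13 by 2.27 and S100a16 by 1.13. S100a8 and S100a9, the calprotectin genes of neutrophils and monocytes, lay between 3.12 and 4.51 on all arrays, below the array medians. S100b, a glial S100 gene, was at 4.73 in mIMCD-3 and between 5.0 and 5.38 in the tissues.

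Binding partners and receptors of these proteins were compared through a list of 23 genes, of which 21 were measured. In tip against mesenchyme 5 were higher and 3 lower (7.38% and 8.37% of all genes), in stalk against mesenchyme 2 were higher and 1 lower (4.3% and 1.24%), and in tip against stalk 1 was higher and 3 lower (2.86% and 6.97%). Plat, the tissue plasminogen activator gene, whose product binds the annexin A2 complex, was at 6.02 in mIMCD-3, 6.89 and 6.73 in tip, 9.42 and 9.21 in stalk, and 10.20 and 10.10 in mesenchyme. It was lower in tip than in stalk (-2.50 ± 0.14; adjusted p = 4.94e-05), and lower in stalk than in mesenchyme (-0.83 ± 0.14; adjusted p = 0.0124). In mIMCD-3 Plat was below every tissue array, and Anxa2 and S100a10 were above every tissue array. Dlc1 was lower in tip than in stalk (-1.58 ± 0.14; adjusted p = 0.000323). Pla2g4a, the cytosolic phospholipase gene, was lower as well (-1.26 ± 0.16; adjusted p = 0.00211).

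Ahnak, a giant scaffold bound by the annexin A2 complex, did not share the low tip. It was at 10.18 in mIMCD-3, 8.45 and 8.05 in tip, 8.44 and 8.40 in stalk, and 7.01 and 6.80 in mesenchyme. It was 1.35 ± 0.17 higher in tip (adjusted p = 0.00102) and 1.51 ± 0.17 higher in stalk (adjusted p = 0.00157) than in mesenchyme. Myof, the myoferlin gene of membrane repair, was higher than in mesenchyme in tip (0.93 ± 0.14; adjusted p = 0.00322) and in stalk (0.99 ± 0.14; adjusted p = 0.00622), and at 10.86 in mIMCD-3 it was 4.42 above the bud. Ppfibp1, the liprin gene whose product binds S100A4, was higher in tip than in stalk (0.92 ± 0.18; adjusted p = 0.0169). Trpv6, a calcium channel gene whose product binds the annexin A2 complex, was 1.01 ± 0.17 higher in tip than in mesenchyme (adjusted p = 0.00469), and Hltf, a chromatin remodeller gene, 0.87 ± 0.19 higher (adjusted p = 0.0182). In mIMCD-3 Plaur, the urokinase receptor gene, was 2.99 above the bud and Tlr4, a receptor of S100A8, 2.38 above it. Of the 21 measured genes of this list, 5 were at least 1 above the bud in mIMCD-3, against 9.75% of all genes. Plat was the 1 at least 1 below it, against 9.33%. The median difference from the bud was 0.06 for the list and -0.05 for all genes.

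**Figure D5:**
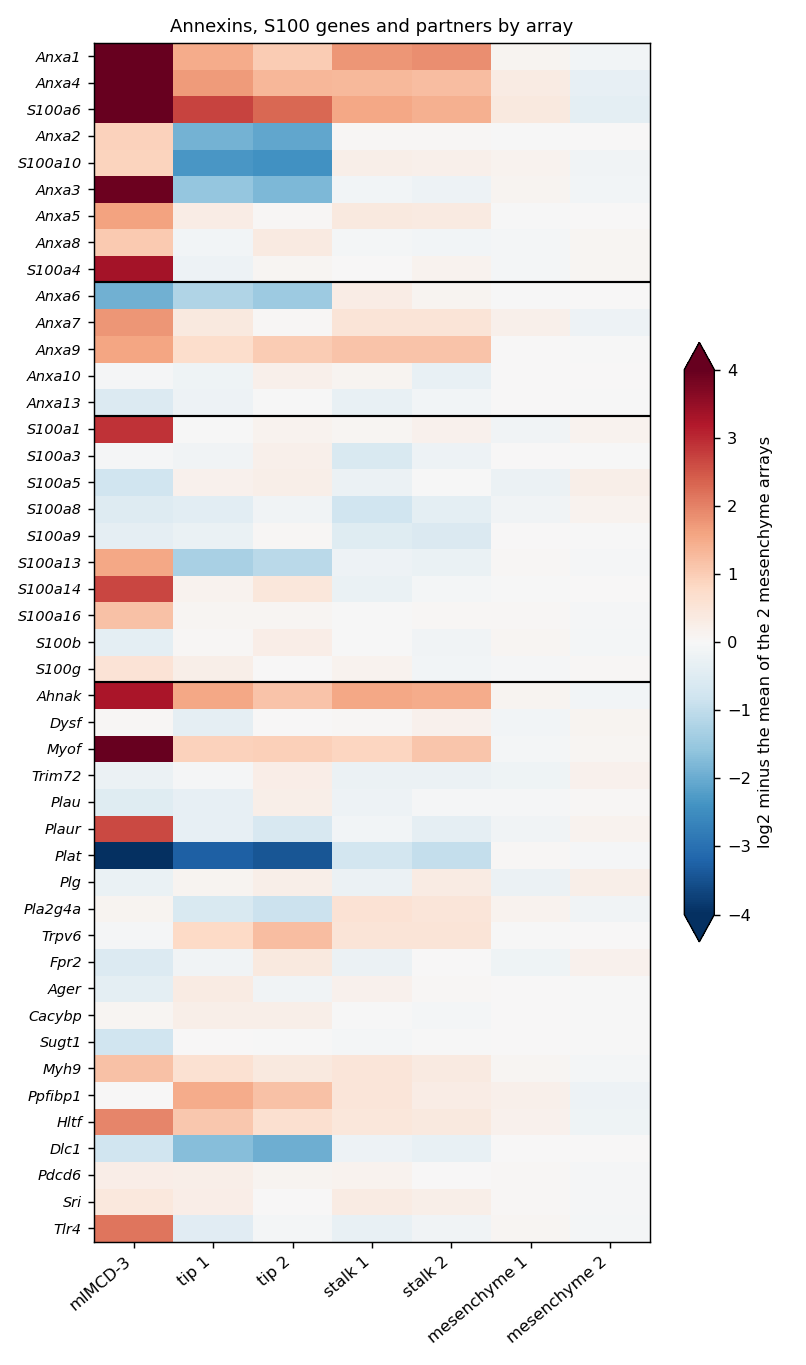
Log2 intensity minus the mean of the 2 mesenchyme arrays (colour, clipped at 4 either way) for the 9 genes, 5 other annexins, 10 other S100 genes and 21 partners (rows, separated by lines) on the 7 arrays (columns). Anxa2, S100a10, Anxa3, Anxa6, S100a13, Plat and Dlc1 are blue in both tip columns, and the mIMCD-3 column is red for all 9 genes at the top.

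The genes with the nearest profiles over the 7 arrays were found for 4 members, as Euclidean distances of profiles centred on their means. The search left out the members and the further annexins, S100 genes and partners above. These values describe the arrays. For Anxa1, S100a4 and S100a6 they rest largely on the mIMCD-3 array, and for Anxa2 also on the low tip arrays. Anxa1 was nearest to Lgals3, the galectin-3 gene (0.77), Krt19, a keratin gene (1.17), and Ankrd1 (1.40). Lgals3 was at 12.45 in mIMCD-3, 6.52 and 6.46 in tip, 7.19 and 7.19 in stalk, and 4.78 and 4.84 in mesenchyme. Anxa2 was nearest to Pde4d, a phosphodiesterase gene (0.31), Cald1, the caldesmon gene (0.38), and Taf9b (0.46), each lowest in the tip arrays and highest in mIMCD-3. S100a4 was nearest to Gbp2 (0.22), Lamb3, a laminin chain gene (0.30), and Sult1c2 (0.34). S100a6 had no gene as close in this search: Plscr2 was at 1.84, Krt19 at 1.84 and Lgals3 at 1.85. The member Anxa1, left out of the search, was closer to S100a6, at 1.70.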

How the data were processed

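The authors deposited 1 table of RMA intensity values for 7 Affymetrix mouse arrays; the design text in the labels says that robust multichip analysis was run over all arrays together. The deposited intensity values are linear (5.08 to 19587), and were converted to log2 here. RMA software and version are not given in the sources used here. Per the labels, RNA was labelled as biotinylated cRNA from 1 ug of total RNA.

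Of 45101 probe sets, 34945 name 1 gene in the platform annotation, and each of 18193 genes was represented by its brightest probe set (largest mean of the 7 log2 values). Of the annotation's Entrez identifiers, 99.4% were in the RefSeq table. No gene was filtered out. The 6 tissue arrays were fitted with limma 3.58.1 (R 4.3.3), with group means as coefficients, which leaves 3 residual degrees of freedom. Tests were two-sided, with Benjamini-Hochberg adjustment over all genes at 0.05. The fit was also run on simulated data with independent noise on each array. That run leaves out the deviations shared by arrays of the same replicate number, so it does not cover them. mIMCD-3 was left out of the fit. The p-values set a difference against the spread between biological replicates, pooled over the 3 tissues and moderated by limma with the spread of all genes. The origin of the 2 replicates of a tissue from separate embryos is not stated.

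Arrays of the same replicate number deviated together (differences of replicate 1 minus 2 correlated at 0.569 for tip and mesenchyme, 0.39 for stalk and mesenchyme, and 0.434 for tip and stalk), and a second fit therefore took that number as a block. The pairing comes from these values, not from the labels. Alternatives were other uses of the probe sets, arrays centred on their medians, a filter on dim genes, trend and robust variance, fits of 2 groups and fits without each tissue array.

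The members, the lists of related genes and the alternatives were chosen with earlier results of these data known. Named were all members, and genes of the lists called in a tissue comparison or at least 2 log2 units from the bud in mIMCD-3. Also named were the 3 nearest genes of 4 members, searched outside the members and the lists of related genes. Genes named outside this rule (Anxa10, Anxa13, Anxa7, S100a16, S100a8, S100a9 and S100b) were chosen after their values were seen. Promoters are from RefSeq, with entries for 8 of the 10 members. Python 3.11.15 and matplotlib 3.10.9 were used for the figures.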

Additional observations from a re-analysis of the deposited data

How the results depend on the processing

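Anxa2, S100a10 and Anxa3 were called lower in tip, against stalk and against mesenchyme, in every alternative run. For these calls each run took the brightest probe set of a gene or the mean of its probe sets. They therefore do not cover the dimmer probe sets of Anxa2 and S100a10 that were not called. The number of the 9 genes called for tip against stalk was 5 with the replicate block (1 higher and 4 lower) against 3 without it, and 3 or 4 without each array in turn. For stalk against mesenchyme it was 1 to 3 without each array, and for tip against mesenchyme 6 throughout. The replicate block changed no other call of the 9 genes. Over all genes, the block gave 4368 calls for tip against mesenchyme (2865 without it), 1808 for stalk against mesenchyme (1007) and 3754 for tip against stalk (1789), of which 43.2% were higher in tip, against 29.1% without it. With each probe set as a feature there were 4512 calls for tip against mesenchyme and 2746 for tip against stalk, from 34945 features. Without each array the calls ranged from 2010 to 3193 for tip against mesenchyme, 523 to 1238 for stalk against mesenchyme and 929 to 2558 for tip against stalk. A lone array was assumed to vary like the other groups. The sign changed only for differences that were not called. Anxa2 in stalk against mesenchyme was -0.02 over the mean of its probe sets. Without each array in turn, S100a4 ranged from -0.02 to 0.15 in stalk against mesenchyme, -0.21 to 0.06 in tip against mesenchyme and -0.27 to 0.00 in tip against stalk. Anxa8 ranged from -0.10 to 0.35 in tip against mesenchyme and -0.00 to 0.45 in tip against stalk. S100a4 and Anxa8 lay below the array medians in the tissues. Centring the arrays brought Anxa2 to 1.09 and S100a10 to 1.06 above mesenchyme in mIMCD-3. With centring 9 of 9 genes were at least 1 above mesenchyme, against 7 of 9 without it. The count at least 1 above the bud fell from 9 to 8 of 9 over the mean of the probe sets. It was also 8 without tip replicate 1 and without stalk replicate 2.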
